A study of Mus musculus with 2 samples.

Results

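The tumour necrosis factor (TNF) superfamily was followed through leukocytes of the mouse aorta. Its members were taken by name from the deposited table of counts: every gene whose symbol begins with Tnfsf or Tnfrsf, together with Tnf, Lta, Ltb, Ltbr, Cd27, Cd70, Cd40, Cd40lg, Fas and Fasl. The rule found 43 of 31053 genes, made up of 18 ligand genes, 24 receptor genes and Tnfsf13os, an RNA transcribed from the strand opposite Tnfsf13. With a minimum of 20 UMIs (unique molecular identifiers, counts of captured transcripts) over all cells, 38 members were measured, 14 ligands, 23 receptors and the antisense RNA. The 5 others were Tnfsf18 with 13 UMIs, Tnfsf15 with 13, Tnfsf13 with 13, Cd70 with 19 and Tnfrsf11b with 16.

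The cells came from the aortic arch and thoracic aorta of Apoe-/- mice, which lack apolipoprotein E and develop atherosclerotic lesions. Over 4 weeks on a western diet, the mice were given weekly saline or weekly nt-LNA at 30 mg/kg. The label nt-LNA is used as the submitters give it. Live CD45+ CD3- cells were sorted and sequenced on the 10x Chromium platform with 3' chemistry, in 1 library per treatment. No source used here gives the sex or age of the mice or the number pooled per library. The libraries held 2742 cells (saline) and 4871 cells (nt-LNA), and 2 cell barcodes occurred in both, with 0 in the same cluster.

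The deposited counts are summed over the cells of 20 clusters, numbered 0 to 19, with both libraries pooled. Gene levels can therefore be compared between clusters and not between treatments, and no test was made. Levels are given as CPM, the UMIs of a gene per 1000000 UMIs of the cluster, with an exact Poisson 95% interval, and ratios with an exact conditional 95% interval. Both cover counting error only. The clusters were made from the same cells, so the levels describe the clusters. Cluster totals ran from 212515 to 12985745 UMIs and cluster sizes from 27 to 941 cells.

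Markers of the main leukocyte types set the names used here. Cluster 1 was B cell-like, 3 NK cell-like, 6 proliferating-like, 7 neutrophil-like, 8 mature dendritic cell-like, 15 nonclassical monocyte-like, 16 ILC2-like (group 2 innate lymphoid cells), 17 type 1 dendritic cell-like and 18 plasmacytoid dendritic cell-like. The remaining clusters are called by number; in cluster 10 foamy macrophage and classical monocyte markers tied with 3 each among its 50 leading genes. Clusters 0, 7, 8, 10, 15, 17, 18 and 19, all deposited as Macrophages, are together called myeloid. In cluster 0 macrophage markers summed to 6238 CPM, but its 10 leading genes held 2 smooth muscle markers, 2 basophil and mast cell markers and 0 macrophage markers. All 4 smooth muscle markers were among its 50 leading genes and summed to 429.9 CPM, and their part in the levels of cluster 0 was not tested. Clusters 5, 9, 13 and 14 carried T lineage transcripts despite the CD3- sort, with Cd3e, a chain of the T cell receptor complex, at 1331, 817, 684 and 1100 CPM. The 7 immature T lineage markers summed to 3349, 4451, 2446 and 1845 CPM there, with Rag1 at 1123, 1657, 233 and 339 CPM. Cluster 12 held markers of both B cells (7467 CPM summed over 10 genes) and T cells (7059 CPM). Clusters 2, 5, 14 and 16 had 1278 to 3935 UMIs per cell and the highest mitochondrial shares (7.24% to 11.2%, against at most 4.29% elsewhere). Of the others, cluster 9 had 3467 UMIs per cell and the rest at least 5848.

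Ligands of the TNF superfamily are mostly membrane proteins that act as trimers, some of which are cut from the surface by proteases. Their receptors either carry a death domain, as Fas and TNFR1 do, or recruit TRAF adaptors that lead to NF-kB. In leukocytes the family includes inflammatory cytokines, survival factors for B cells, costimulators of T cells, inducers of lymphoid tissue and inducers of cell death. In atherosclerotic aorta the best-known members are TNF, made by macrophages, and the costimulator pair CD40 ligand and CD40.

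The promoters of Ltb, Tnf and Lta are shown first because these ligand genes are neighbours on chromosome 17, and Tnf was highest in other clusters than Ltb and Lta. Lymphotoxin beta (Ltb) anchors lymphotoxin alpha (Lta) at the cell surface, and Tnf encodes the inflammatory cytokine itself. Each sequence is the 250 bases before the start of the gene, 5' to 3' on the gene's strand, from RefSeq on GRCm38.p6. The positions are chr17:35194257-35194506 (plus strand) for Ltb, chr17:35202008-35202257 (minus strand) for Tnf and chr17:35205352-35205601 (minus strand) for Lta. Capitals mark matches to the motifs searched, on either strand.
Ltb: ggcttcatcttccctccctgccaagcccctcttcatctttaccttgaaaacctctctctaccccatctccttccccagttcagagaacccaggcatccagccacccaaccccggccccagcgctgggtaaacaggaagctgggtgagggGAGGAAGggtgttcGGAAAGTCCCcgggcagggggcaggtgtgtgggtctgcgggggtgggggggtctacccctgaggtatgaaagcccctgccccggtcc
Tnf: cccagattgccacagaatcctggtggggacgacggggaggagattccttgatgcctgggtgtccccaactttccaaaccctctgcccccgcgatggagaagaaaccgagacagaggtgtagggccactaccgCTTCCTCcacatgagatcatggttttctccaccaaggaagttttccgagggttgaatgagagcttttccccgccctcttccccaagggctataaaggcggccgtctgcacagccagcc
Lta: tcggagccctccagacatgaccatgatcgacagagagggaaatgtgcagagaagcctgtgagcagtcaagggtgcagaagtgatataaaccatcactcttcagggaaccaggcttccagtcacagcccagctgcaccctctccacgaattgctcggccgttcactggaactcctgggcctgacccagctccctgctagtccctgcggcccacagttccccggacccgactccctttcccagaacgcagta
The motifs were the NF-kB consensus kappaB, AP-1 (TGANTCA), PU.1 (GAGGAAG) and the octamer core (TTTGCAT), and no marked match overlaps another. In the Ltb promoter a PU.1 match lies 101 to 95 bases before the start, and a kappaB match on the opposite strand lies 87 to 78 bases before it. The Tnf window holds a PU.1 match on the opposite strand, 118 to 112 bases before the start. None of these letters occur in the Lta window. Among 32851 promoters of this length, 7.25% hold kappaB, 6.75% AP-1, 10.6% PU.1 and 4.12% the octamer core. Of the 29 measured members with a promoter in the table, kappaB was found in 4 (Ltb, Tnfrsf8, Tnfrsf9 and Tnfrsf25), AP-1 in 5, PU.1 in 4 and the octamer core in 2.

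The levels of these neighbours took different orders over the clusters. Ltb was found in every cluster, from 57.6 CPM in type 1 dendritic cell-like cluster 17 through a median of 188 CPM to 1007 CPM (877–1151) in ILC2-like cluster 16. Cluster 2 followed at 846 CPM (801–894), cluster 11 at 768 CPM (732–806) and B cell-like cluster 1 at 666 CPM (642–691). Lymphoid clusters thus held the 4 highest Ltb levels. By UMIs per cell, Ltb in cluster 16 was 0.851 of the mean of the others. Tnf ran from 1.28 CPM in cluster 14 through a median of 8.51 CPM to 105 CPM (94.5–116) in neutrophil-like cluster 7. Nonclassical monocyte-like cluster 15 stood at 92.2 CPM (76.5–110), cluster 0 at 65.6 CPM (61.3–70.2) and cluster 10 at 54.0 CPM (48.3–60.0). The 2 highest Tnf levels were not separated by counting error (ratio 1.14, 0.924–1.41), and the 4 highest clusters were among those called myeloid, cluster 0 with the mixed markers given above. Lta, with 198 UMIs in all, was highest in cluster 16 at 18.8 CPM (5.13–48.2, from 4 UMIs). B cell-like cluster 1 held 8.92 CPM (6.31–12.2), cluster 2 held 8.51 CPM, cluster 12 held 7.41 CPM, and no Lta UMI was found in clusters 18 and 19. Pearson's r of log2(CPM + 1) over the 20 clusters was -0.07 for Ltb and Tnf and -0.10 for Tnf and Lta. These clusters share libraries and cells of related types, so r is a description.

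**Figure D1:**
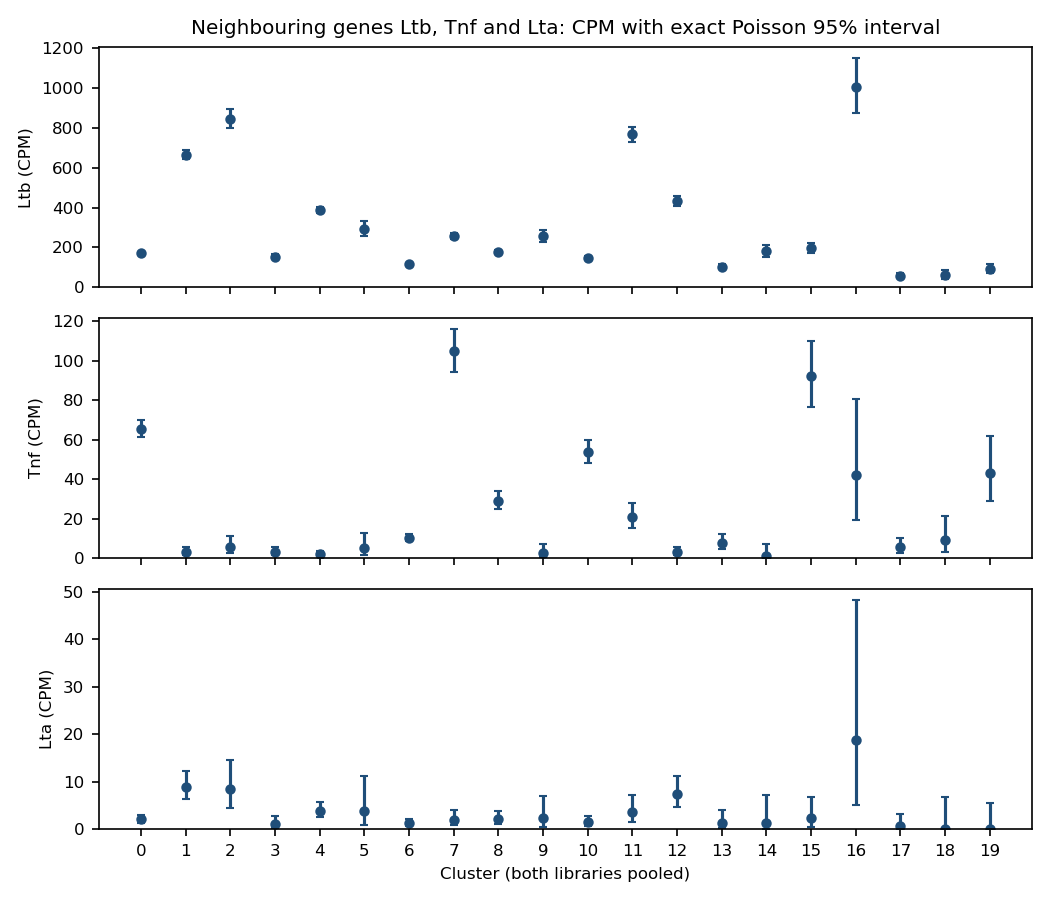
Levels of the neighbouring genes Ltb, Tnf and Lta in CPM (vertical axes, 1 panel per gene) in each of the 20 clusters (horizontal axis), with exact Poisson 95% intervals. Ltb was highest in clusters 16, 2, 11 and 1, Tnf in clusters 7, 15, 0 and 10, and the highest Lta point, in cluster 16, rests on 4 UMIs.

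Ltb in myeloid clusters was set beside B cell RNA found in the same clusters. Cd79a, which encodes a chain of the B cell receptor, served as the yardstick. Clusters 1, 2, 4 and 12 had 14.9 to 19.7 Ltb UMIs per 100 Cd79a UMIs. Cluster 0 had 25.2, cluster 10 had 29.2, cluster 17 had 28.1, cluster 18 had 25.0 and cluster 19 had 24.6, little above that range. Clusters 7, 8 and 15 had 39.9, 41.6 and 37.0. In clusters 16, 11, 9 and 5 the ratio was 738, 724, 303 and 249, so Ltb there was not in proportion to Cd79a. Whether free RNA from lysed B cells or cells of mixed type entered the myeloid values was not tested.

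Over the whole superfamily, levels varied more between clusters than those of most genes. Together the members held 65362 UMIs, 0.0931% of all UMIs, and 62.7% of the 29152 ligand UMIs came from Ltb. Specificity was summarised by tau, which is 0 for a gene at the same log2(CPM + 1) in every cluster and 1 for a gene found in 1 cluster. Its median was 0.611 for ligands, 0.526 for receptors and 0.341 for the 14202 genes with at least 20 UMIs. The members were read at lower depth than other genes (median 605 against 966 UMIs), and the part of depth in tau was not tested. Tau ran from 0.226 for Ltb to 0.952 for Tnfrsf17. A level over 2-fold the mean of the other clusters was found for 47 of 280 ligand and cluster pairs (16.8%) and 67 of 460 receptor and cluster pairs (14.6%), against 9.45% for all genes.

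Highest levels were spread over lymphoid and myeloid clusters. The 9 clusters deposited as Macrophages, which include the neutrophil-like and dendritic cell-like ones, held the highest CPM of 5 ligands and 8 receptors, or 36.8% of members with the antisense RNA, near the 33.7% of all genes. The 4 clusters deposited as B cells held the highest level of 1 ligand and 5 receptors (9.1% of all genes). The 6 deposited as T cells, cluster 16 among them, held that of 6 ligands and 9 receptors (53.8% of all genes). The NK cell cluster held that of 2 ligands and 1 receptor (3.49% of all genes). For 18 members (47.4%, against 28.6% of all genes) the highest cluster exceeded the next by more than counting error. By cluster, 16 members passed 2-fold in cluster 16 (16.6% of all genes did), 11 in cluster 7 (7.28%), 10 in cluster 10 (7.37%), 9 in cluster 8 (6.26%), 9 in cluster 11 (6.63%), 8 in cluster 2 (11.9%) and 7 in cluster 15 (7.46%). A single member passed it in cluster 6 (8.32%), Tnfrsf17, and in cluster 13 (11%), Tnfsf11.

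**Figure D2:**
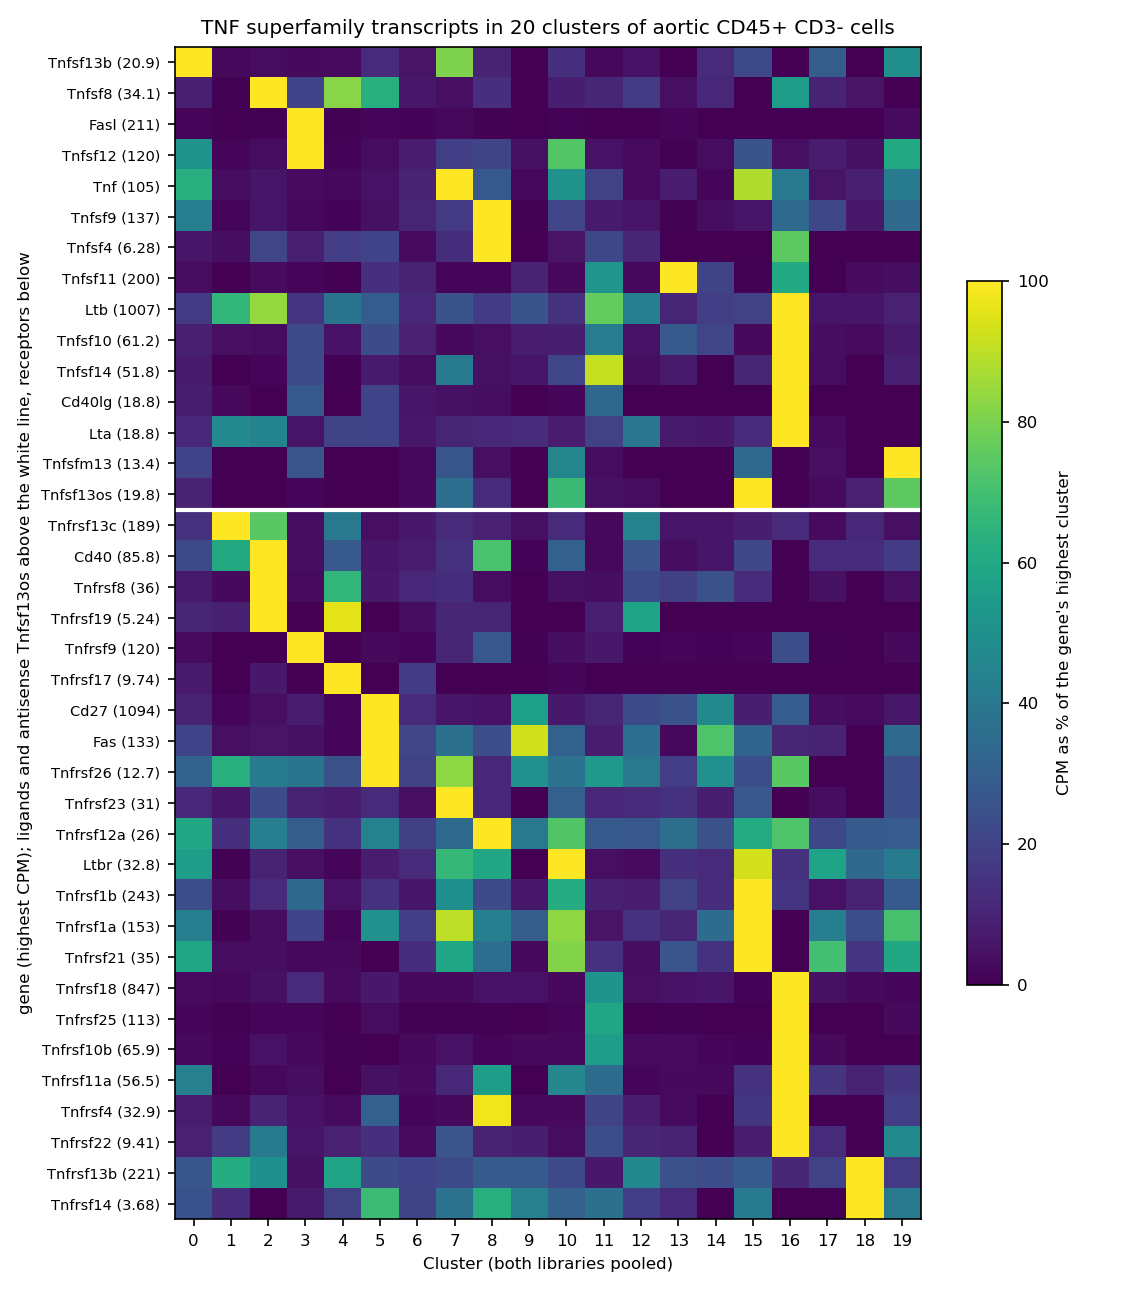
CPM of the 38 measured members (vertical axis, with the highest CPM in brackets) in the 20 clusters (horizontal axis), as a percent of each gene's highest cluster; ligands and the antisense RNA lie above the white line and receptors below. Bright blocks stand in clusters 16 and 11 (Ltb, Tnfsf10, Tnfsf14, Tnfrsf18, Tnfrsf25, Tnfrsf10b), in clusters 7, 10 and 15 (Tnf, Tnfrsf1a, Tnfrsf1b, Ltbr) and in clusters 1, 2, 4 and 12 (Tnfrsf13c).

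The receptors of TNF were highest in the same myeloid clusters as their ligand. Tnfrsf1a encodes TNFR1, the death domain receptor found on most cells, and Tnfrsf1b encodes TNFR2, which is more restricted to leukocytes. Tnfrsf1a had a median of 40.9 CPM and reached 153 CPM (133–176) in nonclassical monocyte-like cluster 15, 138 CPM (126–150) in neutrophil-like cluster 7 and 128 CPM (119–137) in cluster 10. B cell-like cluster 1 held 0.704 CPM of it, and the 0 UMIs in cluster 16 allow up to 14.1 CPM. Tnfrsf1b had a median of 32.5 CPM and stood at 243 CPM (217–271) in cluster 15, 1.61-fold (1.42–1.83) above cluster 10 at 151 CPM (141–161). Cluster 7 followed at 122 CPM (111–134) and NK cell-like cluster 3 at 81.1 CPM, and the lowest level was 9.39 CPM in cluster 1. Ligand and both receptors passed 2-fold together in clusters 7, 10 and 15. Over the 20 clusters r was 0.73 between Tnf and Tnfrsf1b and 0.35 between Tnf and Tnfrsf1a.

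Ltbr, the lymphotoxin beta receptor known for its role in lymphoid tissue formation, was a myeloid transcript here. Its highest levels were 32.8 CPM (28.4–37.6) in cluster 10, 30.5 CPM (21.8–41.5) in cluster 15, 21.8 CPM in cluster 7, 19.5 CPM in cluster 8, and 19.0 CPM in cluster 17. B cell-like cluster 1 held 0.235 CPM, from 1 UMI, and cluster 9 held 0 UMIs, which allows up to 2.40 CPM. Ltb and Ltbr passed 2-fold together in 0 clusters (r = -0.52). Tnfsf14 (LIGHT), the other ligand of Ltbr, stood at 51.8 CPM (25.8–92.6) in cluster 16, 47.2 CPM (38.5–57.1) in cluster 11 and 21.3 CPM (16.8–26.6) in neutrophil-like cluster 7. In cluster 7 both Tnfsf14 and Ltbr passed 2-fold. Tnfrsf14 (HVEM), the second receptor of LIGHT, had 68 UMIs and at most 3.68 CPM (0.446–13.3, cluster 18, 2 UMIs). Its order over clusters cannot be read at this depth.

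The B cell survival system placed ligand and receptors in different clusters. Tnfsf13b (BAFF) supports the survival of B cells and signals through Tnfrsf13c (the BAFF receptor), Tnfrsf13b (TACI) and Tnfrsf17 (BCMA). Of its 414 UMIs, 65.5% lay in cluster 0, at 20.9 CPM (18.5–23.5), which carried the complement gene C1qa of macrophages at 1965 CPM. Neutrophil-like cluster 7 followed at 16.9 CPM (12.9–21.7), not separated from cluster 0 by counting error (ratio 1.24, 0.934–1.66). Cluster 19 held 10.4 CPM (4.19–21.5) and cluster 17 held 6.15 CPM. All other clusters lay at 4.57 CPM or below, so BAFF transcripts were found mainly in myeloid clusters. Cluster 0 among these has the mixed markers given above.

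Tnfrsf13c was highest in B cell-like cluster 1 at 189 CPM (176–202), followed by cluster 2 at 141 CPM (123–161), cluster 12 at 84.8 CPM and cluster 4 at 76.7 CPM. Its median over clusters was 16.8 CPM and its lowest level 4.08 CPM, in cluster 11. Its level followed that of Cd79a: the 4 clusters richest in B cell genes had 2.49 to 5.60 Tnfrsf13c UMIs per 100 Cd79a UMIs, and the others 1.98 to 10.4, except cluster 16 with 17.2 from 5 UMIs. Tnfrsf13b behaved otherwise. It peaked in plasmacytoid dendritic cell-like cluster 18 at 221 CPM (183–264), 1.62-fold (1.32–1.97) above cluster 1 at 137 CPM (126–148). Cluster 4 held 129 CPM, cluster 2 held 111 CPM and cluster 12 held 103 CPM, the median over clusters was 53.9 CPM and the lowest level 9.80 CPM, in cluster 3. Per 100 Cd79a UMIs there were 90.9 Tnfrsf13b UMIs in cluster 18 and 72.6 in cluster 9, against 1.95 to 5.72 in clusters 1, 2, 4 and 12. Of the other clusters, all but NK cell-like cluster 3 (5.62) also lay above that range. Among them were the T lineage clusters 5 (43.01), 14 (34.2) and 13 (32.6). TACI transcripts were therefore not in proportion to B cell RNA in cluster 18, nor in most clusters outside 1, 2, 4 and 12. Tnfrsf13b lies opposite the pseudogene Gm12269, for which no count was found, and the part of Gm12269 in these ratios was not tested.

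Tnfrsf17, the receptor known from plasma cells, had the highest tau of the members (0.952). Cluster 4, whose leading genes include Jchain, held 70.1% of its 97 UMIs at 9.74 CPM (7.57–12.4). Cluster 6 followed at 1.69 CPM, and 15 clusters held none. Tnfsf13 (APRIL), the second ligand of TACI and BCMA, had 13 UMIs in all, 7 of them in cluster 10. Its neighbours share its locus: Tnfsfm13, the read-through of Tnfsf12 and Tnfsf13, reached 13.4 CPM (6.13–25.4) in cluster 19, and 6.10 CPM (4.32–8.38) in cluster 10. Antisense Tnfsf13os reached 19.8 CPM (12.9–29.0) in cluster 15, and 13.5 CPM (10.8–16.7) in cluster 10. No source used here says how reads were split between these overlapping genes, so the low APRIL count is uncertain.

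**Figure D3:**
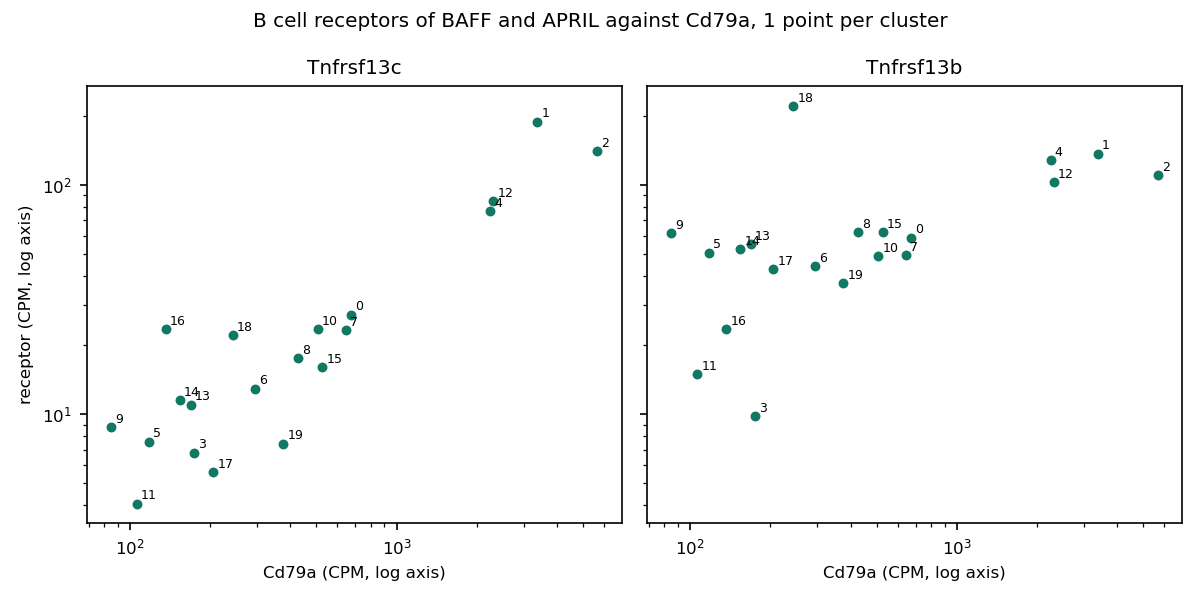
CPM of Tnfrsf13c (left) and Tnfrsf13b (right) against CPM of the B cell gene Cd79a, both on log axes, with 1 point per cluster labelled by its number. Tnfrsf13c follows Cd79a, whereas Tnfrsf13b in cluster 18 lies at 221 CPM, above clusters 1, 2, 4 and 12 at lower Cd79a.

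Among the costimulators, the mature dendritic cell-like cluster 8 held several ligands and receptors together. Tnfsf9 (4-1BB ligand), a costimulator that antigen-presenting cells show to T cells, reached 137 CPM (128–147) in cluster 8, 2.34-fold (2.11–2.59) above cluster 0 at 58.6 CPM (54.5–62.9). Its median over clusters was 8.54 CPM, and cluster 9 held the least at 0.801 CPM. Its receptor Tnfrsf9 (4-1BB) was highest in NK cell-like cluster 3 at 120.3 CPM (109–132), 3.71-fold (3.11–4.43) above cluster 8 at 32.5 CPM (27.9–37.5). Ligand and receptor therefore peaked in different clusters while both passed 2-fold in clusters 8 and 16. In cluster 16 the receptor had 6 UMIs. Tnfrsf9 lies opposite Camta1, which stayed at or below 51.3 CPM in every cluster.

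Tnfsf4 (OX40 ligand) had 67 UMIs, 35 of them in cluster 8, at 6.28 CPM (4.37–8.73). Tnfrsf4 (OX40), best known from activated and regulatory T cells, had 180 of its 299 UMIs in the same cluster, at 32.3 CPM (27.7–37.4). Cluster 16 stood at 32.9 CPM (13.2–67.9) of the receptor, from 7 UMIs, and at 4.71 CPM (0.119–26.2) of the ligand, from 1 UMI. Cluster 5 followed at 10.1 CPM, from 8 UMIs, and no other cluster exceeded 6.80 CPM. Over the 20 clusters r was 0.80 for this pair, with most values near 0 and clusters 8 and 16 far from the others, the latter on that 1 UMI of the ligand.

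Cd40 is the receptor through which T cells license B cells and dendritic cells. It passed 2-fold in clusters 1 and 2, deposited as B cells, and in mature dendritic cell-like cluster 8. It was highest in cluster 2 at 85.8 CPM (71.7–102), 1.40-fold (1.14–1.72) above cluster 8 at 61.1 CPM (54.8–68.0), with cluster 1 at 52.1 CPM (45.5–59.4). Clusters 4 and 12, also deposited as B cells, did not pass 2-fold for Cd40. The median was 11.6 CPM, and cluster 16 held 0 UMIs, which allows up to 14.1 CPM. Per 100 Cd79a UMIs, clusters 1, 2, 4 and 12 had 0.977 to 1.54 Cd40 UMIs and cluster 8 had 14.3, so the dendritic cell-like level was not in proportion to B cell RNA. Its ligand Cd40lg, best known from activated CD4+ T cells, had 84 UMIs. It stood at 18.8 CPM (5.13–48.2) in cluster 16, from 4 UMIs, 6.35 CPM (3.47–10.7) in cluster 11, and 5.17 CPM (3.11–8.08) in cluster 3. In 10 clusters it was at 0. For ligand and receptor r was -0.56 over the clusters of these cells, which were sorted as CD3-. In cluster 16, where the ligand was highest, the level allowed for Cd40 lies above its median. With few ligand UMIs and 10 clusters at 0, r is not read as an opposite order of the pair.

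Cd27, a costimulatory receptor of T cells and of memory B and NK cells, was highest where T lineage transcripts were. Cluster 5 held 1094 CPM (1022–1169), 1.77-fold (1.60–1.95) above cluster 9 at 619 CPM (576–664), and cluster 14 held 521 CPM (472–574). The median over clusters was 86.2 CPM and the lowest levels 20.9 CPM, in clusters 1 and 4. Per 100 Cd3e UMIs there were 82.2 Cd27 UMIs in cluster 5 and 75.8 in cluster 9. The myeloid clusters ran from 51.7 in cluster 19 to 106 in cluster 18, which held 17 Cd27 UMIs, with 67.3 to 86.2 in clusters 0, 7, 8, 10, 15 and 17. Clusters 13 and 14 had less, at 39.9 and 47.4. Clusters 11 and 16 had far more, at 504 and 486, as did cluster 3 at 155 and clusters 1, 2 and 4 at 151 to 195. Whether the myeloid Cd27 came from T lineage RNA was not tested. Vamp1, on the opposite strand at this locus, was also highest in clusters 5 (198 CPM) and 9 (121 CPM), and no source used here gives the strand setting of the counting. Cd70, the ligand of CD27, had 19 UMIs, 7 of them in cluster 8 and 4 in cluster 2.

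The CD30 pair was highest in clusters 2 and 4, both deposited as B cells. Tnfsf8 (CD30 ligand) reached 34.1 CPM (25.4–44.7) in cluster 2, 27.9 CPM (24.2–32.2) in cluster 4, and 21.5 CPM (12.5–34.5) in cluster 5. Tnfrsf8 (CD30), an activation marker of lymphocytes, reached 36.0 CPM (27.1–46.9) in cluster 2, and 23.6 CPM (20.2–27.5) in cluster 4, with at most 8.99 CPM elsewhere. B cell-like cluster 1 held 0.235 CPM of the ligand and 0.939 CPM of the receptor, so not all clusters rich in B cell genes carried the pair. Tnfrsf19 (TROY), a receptor better known outside the immune system, followed a like order with 5.24 CPM (2.26–10.3) in cluster 2, 5.02 CPM (3.49–6.98) in cluster 4, and 3.03 CPM in cluster 12, over 69 UMIs.

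Tnfrsf18 (GITR), a costimulatory receptor known from regulatory T cells and innate lymphoid cells, was highest in cluster 16 at 847 CPM (728–980) and cluster 11 at 438 CPM (411–467). NK cell-like cluster 3 followed at 101 CPM (91.0–112), the median over clusters was 36.6 CPM and the lowest level 8.38 CPM, in cluster 15. Its ligand Tnfsf18 had 13 UMIs. Tnfrsf4 and Tnfrsf18 are neighbours on chromosome 4 and both were highest in cluster 16 by CPM. For Tnfrsf4, counting error did not separate cluster 16 from cluster 8 (ratio 1.02, 0.405–2.15), and cluster 8 was highest by UMIs per cell. In cluster 8 Tnfrsf4 stood 7.98-fold above the mean of the other clusters and Tnfrsf18 at 0.431 of it.

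**Figure D4:**
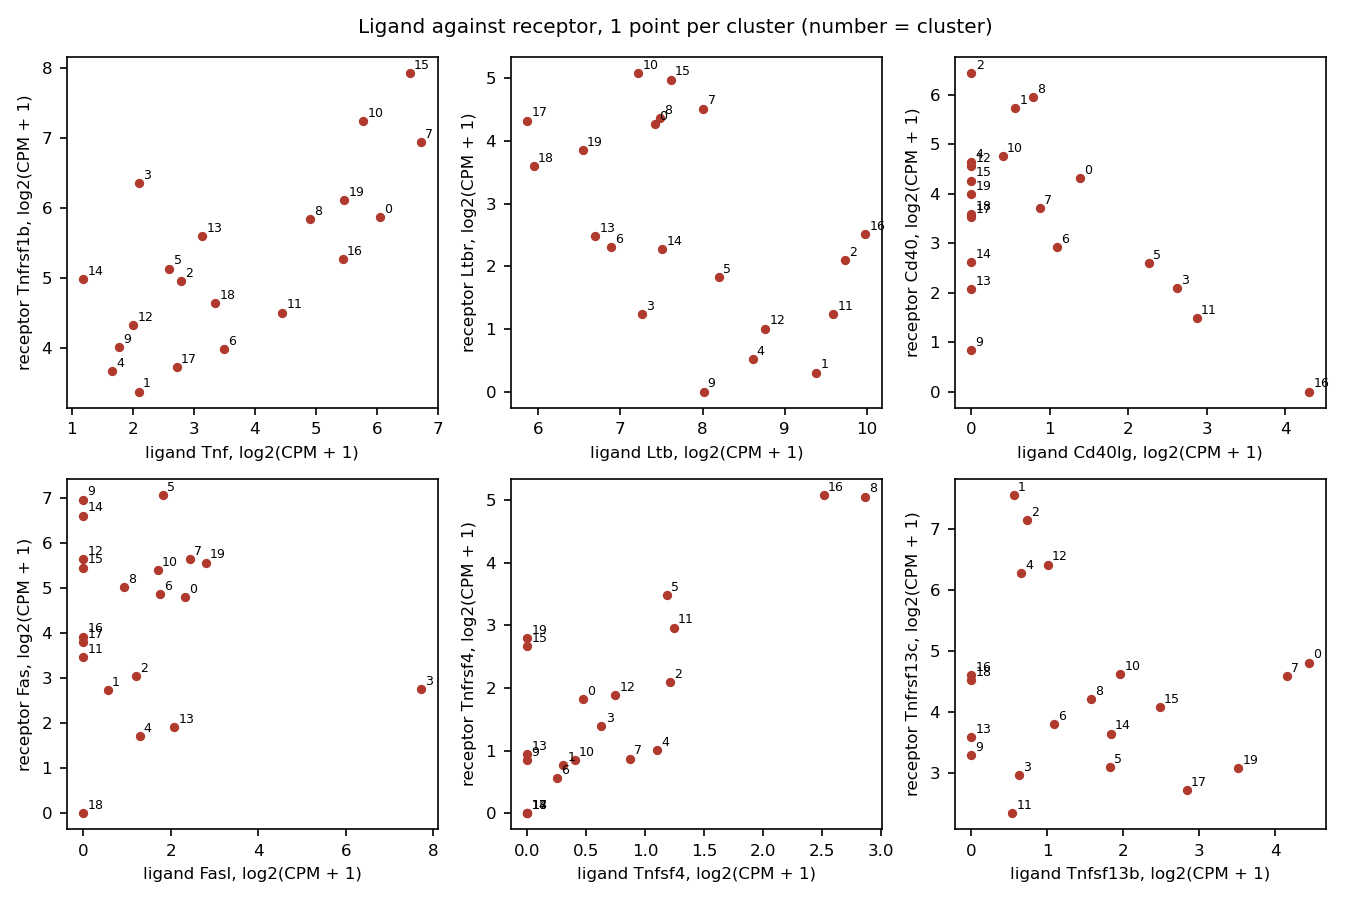
Ligand (horizontal axis) against receptor (vertical axis) as log2(CPM + 1) for 6 pairs, with 1 point per cluster labelled by its number. Tnf and Tnfrsf1b are both high in clusters 7, 10 and 15 (r = 0.73). Tnfsf4 and Tnfrsf4 are both high in cluster 8 and, on 1 UMI of the ligand, in cluster 16. For Cd40lg and Cd40 r is -0.56, with the ligand at 0 in 10 clusters.

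Among the death ligands, Fasl was almost entirely an NK cell-like transcript. Fas ligand kills target cells through the death domain receptor Fas. Cluster 3 held 84.8% of its 913 UMIs at 211 CPM (196–226), 139-fold the mean of the other clusters, and Fasl is one of the leading genes of that cluster. Every other cluster lay at 5.96 CPM or below, and 8 had no UMI. Cluster 3 had 33.1 Fasl UMIs per 100 UMIs of the NK cell receptor gene Ncr1, and cluster 0, with 52 Fasl UMIs, had 44.4. Fas itself was highest in cluster 5 at 133 CPM (109–161) and cluster 9 at 123 CPM (105–145), which counting error did not separate (ratio 1.08, 0.832–1.39), and then in cluster 14 at 96.3 CPM (75.7–121). The myeloid clusters 7, 19, 15 and 10 lay at 41.1 to 49.0 CPM, and NK cell-like cluster 3 at 5.72 CPM. By UMIs per cell Fas in cluster 5 was 0.534 of the mean of the others. Ligand and receptor passed 2-fold together in 0 clusters.

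TRAIL and its death receptor were highest in clusters 16 and 11. Tnfsf10 (TRAIL), a ligand that induces apoptosis, reached 61.2 CPM (32.6–105) in cluster 16, from 13 UMIs, and 25.8 CPM (19.6–33.5) in cluster 11. NK cell-like cluster 3 held 13.6 CPM (10.1–18.0). Tnfrsf10b, the mouse death receptor of TRAIL, reached 65.9 CPM (36.0–111) in cluster 16, and 36.7 CPM (29.2–45.6) in cluster 11. No other cluster exceeded 3.32 CPM, so ligand and receptor were high in the same clusters. Tnfrsf23 and Tnfrsf22, decoy receptors of TRAIL, lie side by side on chromosome 7 with the related Tnfrsf26. Tnfrsf23 was highest in neutrophil-like cluster 7 at 31.0 CPM (25.5–37.3), 3.27-fold (2.36–4.56) above cluster 10 at 9.47 CPM. Tnfrsf22 had 71 UMIs and 9.41 CPM (1.14–34.0, 2 UMIs) in its highest cluster, 16. Tnfrsf26 had 302 UMIs, with 12.7 CPM (6.07–23.3) in cluster 5, and 10.5 CPM (7.44–14.4) in cluster 7. Per cell it was at 0.421 of the mean of the others in cluster 5. These related genes may share reads, and all lie opposite E230032D23Rik, which was at 46.2 CPM in cluster 7, so their counts are uncertain.

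Tnfrsf25 (DR3) carries a death domain and acts as a costimulator of lymphocytes. Cluster 16 held 113 CPM (72.4–168) and cluster 11 held 66.2 CPM (55.9–77.9). All others lay at 3.80 CPM or below, and 62.9% of its 232 UMIs lay in cluster 11. Its ligand Tnfsf15 had 13 UMIs. Tnfrsf21 (DR6), another death domain receptor, was myeloid, with 35.0 CPM (25.7–46.7) in cluster 15, 28.6 CPM (24.5–33.1) in cluster 10, and 24.6 CPM (17.9–33.0) in cluster 17. The death domain receptors thus fell into 3 orders: Tnfrsf1a and Tnfrsf21 in myeloid clusters, Fas in T lineage clusters, and Tnfrsf10b and Tnfrsf25 in clusters 11 and 16.

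Tnfsf11 (RANKL), the ligand that drives osteoclast formation and lymph node development, was highest in cluster 13 at 199.7 CPM (181–219). Cluster 16 followed at 122 CPM (79.9–179) and cluster 11 at 104 CPM (90.8–118). Cluster 14 held 41.1 CPM, no other cluster exceeded 26.6 CPM, and cluster 1 held no UMI. The ratio of cluster 13 to cluster 16 was 1.63 (1.10–2.53). Its receptor Tnfrsf11a (RANK), known from osteoclast precursors and dendritic cells, stood at 56.5 CPM (29.2–98.6) in cluster 16, from 12 UMIs, 31.7 CPM (27.2–36.8) in cluster 8, 26.2 CPM (22.3–30.5) in cluster 10, and 24.6 CPM (21.9–27.4) in cluster 0. Per cell, Tnfrsf11a in cluster 16 was 0.995 of the mean of the others. The soluble decoy Tnfrsf11b (osteoprotegerin) had 16 UMIs, 11 of them in cluster 0. Tnfsf12 (TWEAK), a cytokine linked to tissue repair, was highest in NK cell-like cluster 3 at 119.8 CPM (109–132), 1.36-fold (1.20–1.55) above cluster 10 at 87.8 CPM (80.6–95.5). Clusters 19 and 0 followed at 73.0 and 62.1 CPM, against 0.918 CPM in cluster 13. Its receptor Tnfrsf12a (Fn14) was found in every cluster, from 3.52 CPM in cluster 1 to 26.0 CPM (21.9–30.6) in cluster 8.

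Cluster 16 was the highest cluster for 11 members (28.9%, against 11.9% of all genes): Ltb, Lta, Tnfsf10, Tnfsf14, Cd40lg, Tnfrsf4, Tnfrsf11a, Tnfrsf18, Tnfrsf22, Tnfrsf25 and Tnfrsf10b. It held 112 cells with 1897 UMIs per cell and 8.42% mitochondrial UMIs. Cluster 11, which shared high levels of many of these genes, had 6623 UMIs per cell and 2.53%. The 7 ILC2 markers summed to 8084 CPM in cluster 16 and to 4274 CPM in cluster 11. Il5 and Il13 were detected in both. Relative to cluster 11, the CPM ratio had an interval above 1 for 7 of the 11 members, among them Tnfrsf18 at 1.93 (1.64–2.27) and Ltb at 1.31 (1.13–1.51).

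These members were chosen for their CPM in cluster 16, which fixes the direction of each CPM ratio and raises its interval. The number of intervals above 1 is therefore no support for a difference between these clusters. Counted as UMIs per cell, most ratios lay below 1. Only Lta (1.49), Tnfrsf4 (1.39) and Tnfrsf22 (1.19) of the 11 were higher per cell in cluster 16, each from 2 to 7 UMIs. Tnfrsf18 fell to 0.554 and Ltb to 0.376 of cluster 11. Over all clusters, 25 of 38 members had another highest cluster by UMIs per cell, and 0 had cluster 16. Less RNA captured per cell and a true difference in RNA content cannot be told apart here. Among others, Tnf then stood highest in cluster 19, Cd40 in cluster 8, Cd27 in cluster 6 and Fas in cluster 19, whereas Fasl, Tnfsf9, Tnfrsf9, Tnfsf11, Tnfsf13b, Tnfrsf13b, Tnfrsf13c and Tnfrsf17 kept theirs.

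**Figure D5:**
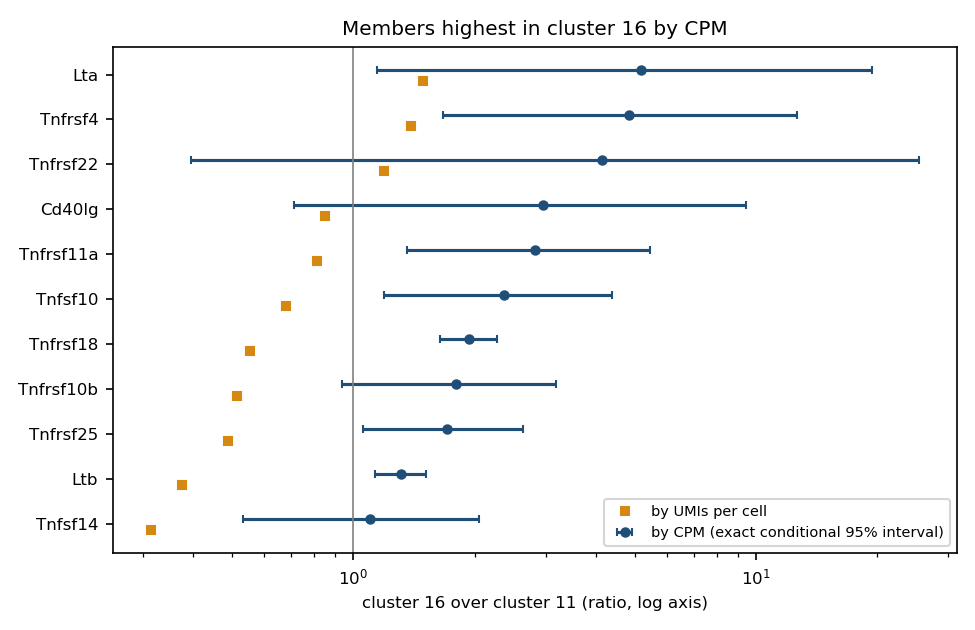
Ratio of cluster 16 to cluster 11 (horizontal log axis) for the 11 members highest in cluster 16, as CPM with exact conditional 95% intervals (circles) and as UMIs per cell (squares). All 11 CPM ratios lie above 1 because the members were chosen for their highest CPM in cluster 16, and 8 of the 11 ratios per cell lie below 1.

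Ligands and receptors of known pairs were set against each other by their highest cluster. Of 27 known pairs, 20 had both partners measured, and 3 shared their highest cluster: Tnfsf8 with Tnfrsf8 (cluster 2), and Tnfsf10 with Tnfrsf10b and with Tnfrsf22 (cluster 16). In 9 pairs both partners passed 2-fold in at least 1 common cluster. Apart from the TNF, TRAIL, CD30, OX40, 4-1BB and LIGHT pairs described above, this held for Tnfsf11 and Tnfrsf11a in clusters 11 and 16. In the other 11 pairs, among them Ltb with Ltbr, Cd40lg with Cd40, Fasl with Fas, Tnfsf12 with Tnfrsf12a and Tnfsf13b with its 3 receptors, no cluster passed for both. Counting error did not separate Tnfsf8 in cluster 2 from cluster 4 (ratio 1.22, 0.880–1.66), or Tnfrsf10b in cluster 16 from cluster 11 (1.79, 0.939–3.19). Tnfrsf22 in cluster 16 rests on 2 UMIs. The like share for pairs of other genes was not computed, so these counts are not read as few or many. The pairs share members, so they are not independent of each other.

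The signalling genes downstream of the receptors varied less between clusters than the members. They were read at 166 UMIs (Mlkl) to 46234 UMIs (Nfkbia), and the part of depth in this was not tested. All 42 genes of a list of adaptors, kinases, NF-kB subunits, regulators and proteases were measured. Their median tau was 0.202, and 5.71% of gene and cluster pairs passed 2-fold, against 9.45% of all genes. Cluster 16 had 12 of the 42 above 2-fold (16.6% of all genes were), cluster 8 had 6 (6.26%) and cluster 15 had 6 (7.46%). Cluster 2 had 5, at the share of all genes (11.9%), and cluster 11 had 4 (6.63%). In cluster 8 the genes above 2-fold were Traf1, Map3k14, Nfkb2, Relb, Rel and Nfkbie. Map3k14 (the kinase NIK), Nfkb2 and Relb are the core of the noncanonical NF-kB pathway, which CD40, the lymphotoxin beta receptor and the BAFF receptor are known to engage.

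Relb, itself on the marker list used to name cluster 8, stood there at 151 CPM (141–161), 5.38-fold the mean of the others. Map3k14 was at 97.7 CPM (89.7–106) in cluster 8, not separated by counting error from cluster 16 at 84.7 CPM. It passed 2-fold in clusters 15 and 16 too. Nfkb2 was at 84.1 CPM (76.7–92.1) in cluster 8 against 66.4 CPM in cluster 1. Traf1, an adaptor of several TNF receptors, was at 913 CPM (789–1051) in cluster 16 against 474 CPM in cluster 8. Of the feedback inhibitors of NF-kB, Tnfaip3 (A20) was at 1327 CPM (1177–1491) in cluster 16 against 1194 CPM in cluster 11. Nfkbia (IkB alpha) was at 3543 CPM (3465–3622) in cluster 11 against 1619 CPM in cluster 16. Both are genes that NF-kB is known to induce, as is Birc3 (cIAP2), at 287 CPM (220–369) in cluster 16 against 222 CPM in cluster 2. Counting error did not separate these levels of Tnfaip3 (interval of the ratio 0.979–1.26) or of Birc3 (0.968–1.70).

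Nfkb1, which encodes the p105 precursor of p50, was at 1200 CPM (1057–1357) in cluster 16 against 553 CPM in cluster 11. The protease gene Furin showed the largest ratio in the list, 18.9-fold in cluster 16, where it was at 1496 CPM (1336–1670) against 658 CPM in cluster 11. Cluster 16 had 1897 UMIs per cell against 6623 in cluster 11, and the pathway genes were not compared by UMIs per cell. Adam10, a membrane protease, was at 162 CPM (135–193) in cluster 14. The adaptor gene Traf4 peaked in cluster 13 at 108 CPM (94.5–123). Mlkl and Ripk3, effectors of necroptosis, were highest in clusters 10 and 14 at 7.39 CPM (5.41–9.85) and 37.2 CPM (24.9–53.5). Counting error did not separate these from the next levels, 5.33 CPM of Mlkl in cluster 15 and 28.6 CPM of Ripk3 in cluster 11. Tbk1, a kinase of innate signalling, was at 56.5 CPM (29.2–98.6) in cluster 16.

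The treatments can be compared only through the cells that held a gene. For each gene the share of nt-LNA cells was averaged over clusters, weighted by where its UMIs lay; this describes cell shares in the 2 libraries and not expression. Over all cells the share was 64.0%, over genes its median was 61.9%, and over members 58.7%. The lowest values belonged to Tnfsf13os (50.1%), Tnfrsf23 (53.2%), Ltbr (53.6%), Tnfsfm13 (53.9%), Tnfrsf1b (54.2%) and Tnf (54.8%). In clusters 7 and 10, where these genes were high, nt-LNA cells made up 41.2% and 41.6%. Those clusters held 17.7% and 15.7% of the Tnf UMIs, and cluster 0, with 61.8% nt-LNA cells, held the most at 39.8%. Tnfrsf17 (70.4%), Tnfrsf19 (69.7%) and Tnfsf11 (69.4%) had the highest. With 1 library per treatment these shares have no replicate check.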

How the data were processed

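Cells of 2 libraries, 1 per treatment, were sequenced. The deposited counts are whole-number UMIs per gene, summed by the authors over the cells of each of 20 clusters, both libraries pooled. The other deposited tables give each cell's library, cluster and cell type name; tallies of cells equalled the deposited summary (largest difference 0). The submitters' processing notes name Cell Ranger 2.1.1, Seurat and mm9. Settings for cell filters, doublet removal and clustering appear in no source used here, and no doublet caller was run. A deposited table of rescaled values was not used.

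CPM is the count divided by the cluster total (smallest 212515, largest 12985745 UMIs). A ratio sets the CPM of a gene against its mean CPM in the others. Where a gene had 0 counts, the level allowed is that of 3 counts. To be named, a cluster needed 3 or more markers of 1 type among its 50 leading genes by ratio, and no other type could have as many among the 50, or as many and at least 1 among the 10 leading genes; clusters with few UMIs also needed 1 marker among the 10. Cluster 0 met this rule for smooth muscle markers alone and is called by number. Every member with at least 20 UMIs is named with its highest clusters. Of the pathway list, the 2 genes with the largest ratio per group are named, and always Tnfaip3, Nfkbia, Birc3, Traf1, Nfkb2 and Relb; Rel and Nfkbie were added after their values were seen. Members, lists, pairs and motifs were chosen with earlier results of these data known. Overlapping genes were read from GENCODE M21 and neighbours from RefSeq, both on a later build than mm9; all 43 symbols matched.

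Cluster 8 was simulated to check the calculations, over 31053 genes of which 50 were changed by each fold. Folds of 2, 4, 8 and 0.25 came back as medians of 1.95, 3.90, 7.81 and 0.249. Alternatives changed the denominator, the scaling, the minimum count, the reference, the fold, the pseudocount and the clusters included. The software was Python 3.11.15, scipy 1.17.1, pandas 2.3.3, matplotlib 3.10.9 and numpy 2.4.6.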

Additional observations from a re-analysis of the deposited data

How the results depend on the processing

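By UMIs per cell, receptors highest in clusters deposited as Macrophages went from 8 to 15, the median tau of receptors from 0.526 to 0.592, and the ratio to the other clusters turned below 1 for Ltb (0.851) and Tnfrsf11a (0.995) in cluster 16 and for Tnfrsf26 (0.421) and Fas (0.534) in cluster 5. Without clusters 2, 5, 14 and 16, that receptor count was 13. With a minimum of 10 UMIs or none, 9 ligands in place of 5 were highest there, and the median tau of ligands was 0.673 in place of 0.611. A pseudocount of 5 CPM gave 0.728 for ligands and 0.624 for receptors. At 4-fold, 21 ligand and 25 receptor pairs with a cluster passed, in place of 47 and 67.

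The highest cluster was kept by 13 of 38 members by UMIs per cell, 32 with upper-quartile scaling and 34 without ribosomal protein and mitochondrial genes. Leaving out a cluster cannot change the highest cluster of a member that was highest elsewhere. Without cluster 16, a setting chosen after seeing the data, 4 of the 27 remaining ratios moved. These ratios could not turn below 1, because each is taken in the member's highest cluster. No paired analysis was possible because each treatment has 1 library and the counts pool both; for the same reason no replicate could be left out. Members with under 100 UMIs, and values from cluster 16, rest on few counts.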
